A study of Homo sapiens with 6 samples.

Results

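The phagocyte NADPH oxidase was followed here through 5 of its genes, CYBA, CYBB, NCF1, NCF4 and RAC2, out of 19775 genes measured. Every probe set annotated to only 1 of these genes was taken, which gave 11 of the 54613 probe sets tested. There were 2 for CYBA, 4 for CYBB, 1 for NCF1, 2 for NCF4 and 2 for RAC2. The cells were MOLM-14, an established line of human acute myeloid leukaemia that carries an MLL-AF9 fusion. One group of 3 samples was kept in 10 nM cortistatin A (CA), a steroidal alkaloid and inhibitor of CDK8 and CDK19, the kinases of Mediator, and the other 3 samples were kept in DMSO, both for 24 h. Each sample was a well of a single cell line and was hybridised to 1 Affymetrix U133 Plus array, so the p-values measure the spread between wells, which may be technical. The comparison asks which of these transcripts differed when the Mediator kinases were inhibited.

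The oxidase is the enzyme with which neutrophils and monocytes make superoxide to kill ingested microbes. Its membrane core, flavocytochrome b558, pairs the catalytic chain gp91phox, encoded by CYBB, with the stabilising chain p22phox, encoded by CYBA. On activation, cytosolic subunits that include p47phox (NCF1) and p40phox (NCF4) move to this core together with the small GTPase RAC2. Inherited loss of CYBB, CYBA, NCF1 or NCF4 impairs the oxidative burst and can give chronic granulomatous disease.

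CA changed the cytosolic genes in opposite directions. NCF1 was 1.50-fold higher in CA than in DMSO, while NCF4 was 1.30-fold and RAC2 1.27-fold lower on the brightest probe set of each gene. The membrane chains CYBA and CYBB did not pass the test. Of the 11 probe sets, 5 were called at an adjusted p under 0.05, 1 higher (NCF1) and 4 lower (both of NCF4 and both of RAC2), by limma with Benjamini-Hochberg adjustment over all probe sets. Among all probe sets, 5.01% were called, 3.0% higher and 2.01% lower. The 5 calls belong to 3 genes, and each of these probe sets was bright, at a mean log2 above 8.7. Bright probe sets were called more often. When only those with a mean log2 of at least 6 were tested, 5440 of 24082 were called, and 6 of the 7 member probe sets left. The groups did not overlap in 6 of the 11, against 25.1% of all probe sets. The median log2 change of the 11 was -0.16, against -0.01 over all probe sets, and 9 of the 11 were below 0. In a bulk sample, less RNA per cell and fewer cells that express a gene cannot be told apart.

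**Figure D1:**
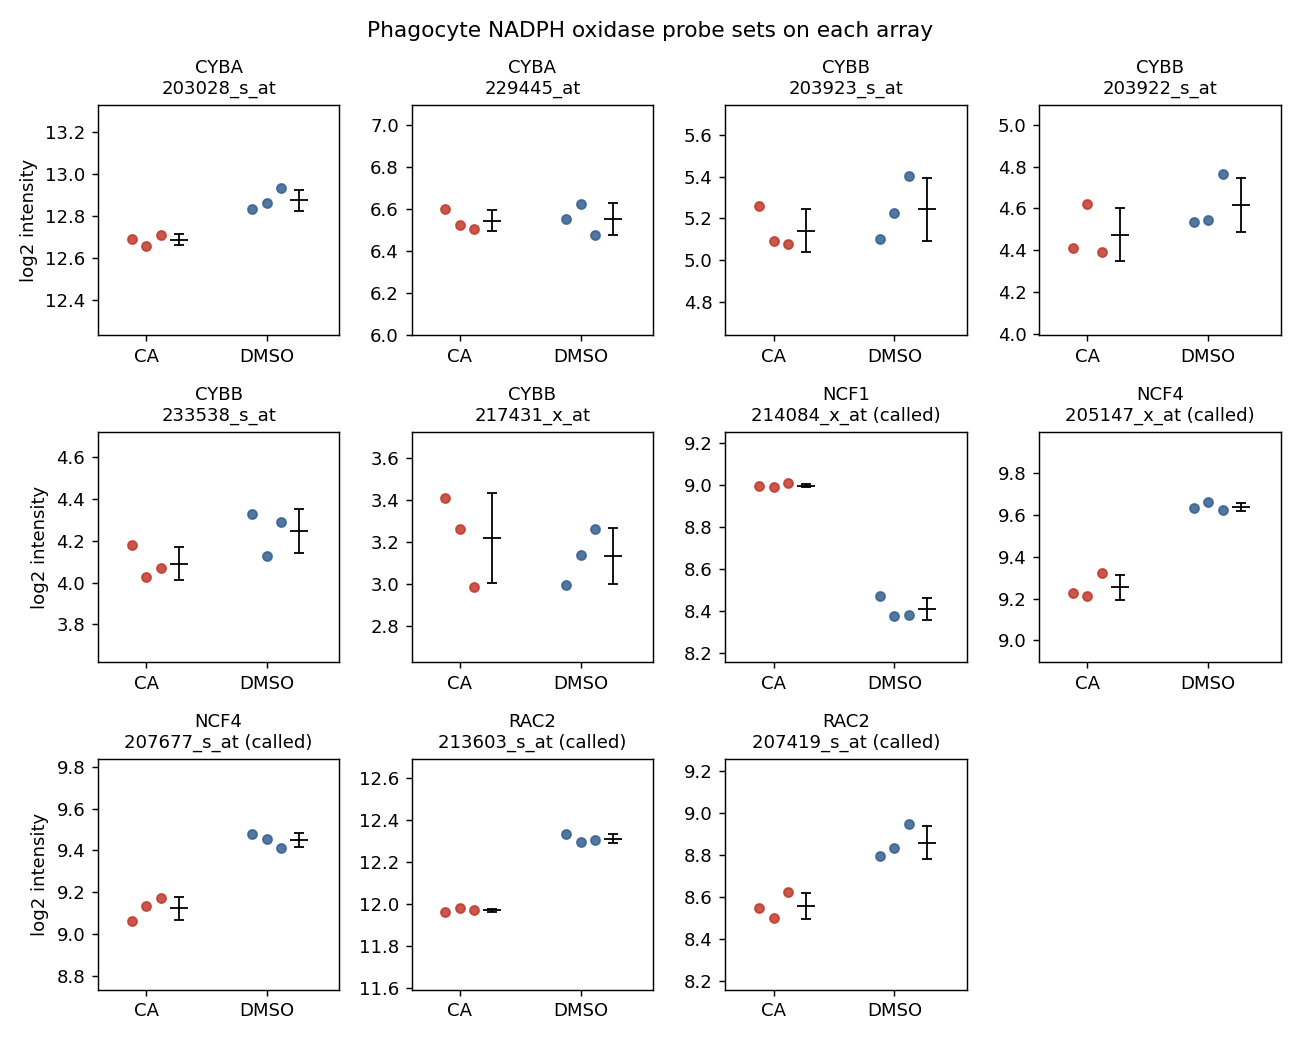
Log2 intensity of the 11 member probe sets (vertical axes, each spanning the same width of log2 units) on the 3 CA and 3 DMSO arrays, with 1 point per array and the mean and SD of each group in black. The NCF1 points are higher in CA, both NCF4 and both RAC2 probe sets are lower in CA without overlap, and the 4 CYBB probe sets overlap.

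The median log2 intensity was 5.59 to 5.62 over the 6 arrays. The difference between the 3' and the 5' control probe set of GAPDH, which grows as RNA degrades, was 0.479 ± 0.048 in CA and 0.376 ± 0.025 in DMSO (SD, n = 3 each; exact permutation p = 0.1, 2-sided, the smallest that 3 against 3 arrays can give). For ACTB it was 2.38 ± 0.07 in CA and 2.27 ± 0.13 in DMSO (exact p = 0.3). Among the marker genes, LYZ, the lysozyme of myeloid cells, was at 13.33 in CA and 13.38 in DMSO. Of 10 granulocyte markers, 3 fell and 0 rose, and the mean of the list was 7.30 to 7.35 on CA arrays and 7.51 to 7.57 on DMSO arrays. Of 7 monocyte markers measured, 1 fell, at list means of 6.18 to 6.24 in CA and 6.21 to 6.34 in DMSO, and of 5 B cell markers 2 rose, at 6.89 to 6.93 in CA and 6.63 to 6.67 in DMSO. Of 8 T and NK cell markers, 1 rose and 1 fell, at 5.97 to 6.02 in CA and 5.90 to 6.01 in DMSO. None of 6 erythroid and megakaryocyte markers (5.67 to 5.73 in CA, 5.66 to 5.72 in DMSO) and none of 8 epithelial and stromal markers (5.26 to 5.37 in CA, 5.28 to 5.30 in DMSO) was called. Among all genes, by 1 probe set each, 4.31% were called higher and 2.55% lower. Many markers were dim, at a mean log2 below 6. These were 5 of the 10 granulocyte, 5 of the 7 monocyte and 3 of the 5 B cell markers. So were 6 of the 8 T and NK cell and 3 of the 6 erythroid and megakaryocyte markers. For the epithelial and stromal markers it was 7 of the 8. The part of RNA quality or of these markers in the oxidase values was not tested.

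NCF1 encodes p47phox, the organiser that bridges the cytosolic subunits and p22phox once it is phosphorylated. Its probe set 214084_x_at read 8.996, 8.992 and 9.010 on the CA arrays, against 8.472, 8.379 and 8.383 on the DMSO arrays. Every CA array was higher than every DMSO array. The log2 change was 0.59 (SE 0.05, 95% confidence interval 0.47 to 0.70, adjusted p = 0.00114, limma), and the call was kept with any 1 of the 6 arrays left out, at adjusted p of 0.00465 to 0.00973. The transcribed pseudogenes NCF1B and NCF1C, on chromosome 7 like NCF1, are nearly identical to it, so the signal of the gene and of its copies cannot be told apart on this array. A further probe set, 204961_s_at, is annotated to all 3 and is therefore no member. It read 8.887, 8.997 and 8.925 in CA, against 8.248, 8.190 and 8.237 in DMSO, a log2 change of 0.71 (SE 0.05, adjusted p = 0.000625), so that both probe sets which carry the name NCF1 were higher in CA.

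The promoter of NCF1 is shown because NCF1 was the member that rose, with those of CYBB and CYBA for comparison. They are the 250 bases before the gene's start, from a table of RefSeq promoters (GRCh38.p14) in which 3 of the 5 members were matched. NCF1 is at chr7:74773761-74774010 on the plus strand, CYBB at chrX:37779809-37780058 on the plus strand and CYBA at chr16:88651054-88651303 on the minus strand. Each is written 5′ to 3′ along its gene, and capitals mark the matches to the motifs described next.
NCF1: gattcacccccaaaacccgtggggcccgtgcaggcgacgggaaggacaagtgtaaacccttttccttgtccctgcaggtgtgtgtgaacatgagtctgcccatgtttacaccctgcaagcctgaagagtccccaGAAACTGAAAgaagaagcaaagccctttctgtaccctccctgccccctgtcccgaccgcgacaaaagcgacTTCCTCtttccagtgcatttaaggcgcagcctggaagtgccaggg
CYBB: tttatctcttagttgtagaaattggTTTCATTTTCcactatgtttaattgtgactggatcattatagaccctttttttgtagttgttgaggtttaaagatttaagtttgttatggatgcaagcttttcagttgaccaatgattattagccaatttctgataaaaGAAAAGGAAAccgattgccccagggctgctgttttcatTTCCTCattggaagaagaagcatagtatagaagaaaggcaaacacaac
CYBA: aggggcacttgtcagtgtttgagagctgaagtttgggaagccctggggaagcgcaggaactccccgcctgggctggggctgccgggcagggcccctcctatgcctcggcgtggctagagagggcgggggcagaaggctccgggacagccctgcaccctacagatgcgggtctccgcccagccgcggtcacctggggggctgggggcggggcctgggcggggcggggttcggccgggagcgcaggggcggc

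There were 5 motifs searched on both strands. GAGGAA, the core bound by the myeloid ETS factor PU.1, was found as TTCCTC once in NCF1, at bases -45 to -40 from the start, and once in CYBB, at -48 to -43. It occurred in 23.6% of the 35116 promoters of the table. GAAANNGAAA, the response element of interferon regulatory factors, was found once in NCF1, as GAAACTGAAA at -116 to -107. CYBB held it at -225 to -216, as TTTCATTTTC, and at -86 to -77, as GAAAAGGAAA, while 3.02% of all promoters held a match. TTGCNNAA, a C/EBP motif (9.05% of promoters), TGTGGT, a RUNX motif (11.0%), and the TATA box TATAAA (10.7%) were found in none of the 3, and CYBA held none of the 5. The matches did not overlap each other. They are descriptions of these letters, and binding was not measured.

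NCF4 encodes p40phox, which binds a phosphoinositide of the phagosome membrane and supports the burst during phagocytosis. Probe set 205147_x_at read 9.23, 9.21 and 9.32 in CA, against 9.63, 9.66 and 9.62 in DMSO. The log2 change was -0.38 (SE 0.05, 95% confidence interval -0.50 to -0.26, adjusted p = 0.00817, limma). The second probe set, 207677_s_at, read 9.06, 9.14 and 9.17 in CA, against 9.48, 9.46 and 9.41 in DMSO, a log2 change of -0.32 (SE 0.05, adjusted p = 0.0161). The groups did not overlap on either probe set, and each change lay within the 95% confidence interval of the other. The first kept its call with any 1 array left out (adjusted p up to 0.0409). The second lost it without DMSO replicate 1, 2 or 3 or CA replicate 1 or 2 (adjusted p of 0.0515 to 0.0655) and kept it without CA replicate 3 (0.0439).

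RAC2 is the small GTPase of blood cells that switches the assembled oxidase on. Its brighter probe set, 213603_s_at, read 11.96, 11.98 and 11.97 in CA, against 12.33, 12.30 and 12.30 in DMSO. The log2 change was -0.34 (SE 0.04, 95% confidence interval -0.44 to -0.24, adjusted p = 0.00714, limma), and it was called with any 1 array left out (adjusted p of 0.0310 to 0.0362). The other, 207419_s_at, read 8.55, 8.50 and 8.63 in CA, against 8.80, 8.83 and 8.95 in DMSO, a log2 change of -0.30 (SE 0.06, adjusted p = 0.0396). All 3 CA arrays were below all 3 DMSO arrays on both. The call of 207419_s_at was lost without any 1 of DMSO replicate 1, 2 or 3 and CA replicate 1, 2 or 3 (adjusted p of 0.0752 to 0.129), and with arrays centred on reference genes (-0.24, adjusted p = 0.0661). RAC1, the widely expressed paralog that can replace RAC2 in the oxidase, was at -0.05 on its brightest probe set, 208640_at (95% confidence interval -0.15 to 0.06, adjusted p = 0.654). None of its 4 probe sets was called, although all 3 CA arrays were below all 3 DMSO arrays on 208640_at and on 208641_s_at (-0.02). The difference between the RAC2 and RAC1 changes was not tested.

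CYBA encodes p22phox, the docking site of p47phox on the membrane. Probe set 203028_s_at read 12.69, 12.66 and 12.71 in CA, against 12.83, 12.86 and 12.93 in DMSO. The groups did not overlap, at a log2 change of -0.19 (SE 0.05, 95% confidence interval -0.31 to -0.07), but the adjusted p over all probe sets was 0.0852. It passed the threshold when 1 probe set per gene was tested (adjusted p = 0.0342) or probe sets with a mean log2 under 5 or 6 were left out (0.0296 and 0.0143), and with an intensity trend and robust moderation (0.000269). It did not pass with arrays centred on their medians (0.102) or on reference genes (0.193), or with a replicate block (0.169). With any 1 array left out, the adjusted p was 0.136 to 0.229. Averaged over both probe sets of the gene, the change was -0.10 (adjusted p = 0.18). The second probe set, 229445_at, was the dimmer one and read 6.60, 6.53 and 6.51 in CA, against 6.55, 6.63 and 6.48 in DMSO. Its groups overlapped, and the change was -0.01 (95% confidence interval -0.14 to 0.13, adjusted p = 0.971).

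CYBB encodes gp91phox, the chain that carries electrons from NADPH to oxygen. All 4 of its probe sets were dim, with means under 6, and the lower quartile of the arrays was 4.12. The brightest, 203923_s_at, read 5.26, 5.09 and 5.08 in CA, against 5.10, 5.23 and 5.40 in DMSO, and its groups overlapped. The log2 change was -0.10 (95% confidence interval -0.31 to 0.11, adjusted p = 0.626). The others were at -0.14 (203922_s_at, adjusted p = 0.481), -0.16 (233538_s_at, adjusted p = 0.309) and 0.09 (217431_x_at, adjusted p = 0.769). The groups overlapped on each of the 4. With 1 array left out, the change on 203923_s_at was -0.17 to -0.02. The 95% confidence interval ran from -0.35 to 0.07 on 203922_s_at, -0.33 to 0.01 on 233538_s_at and -0.19 to 0.36 on 217431_x_at. Of the 4 intervals, only that of 203922_s_at reached -0.34, the change of RAC2 213603_s_at. The -0.30 of RAC2 207419_s_at lay outside only that of 217431_x_at. On the rest, a fall of that size could not be told from none.

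**Figure D2:**
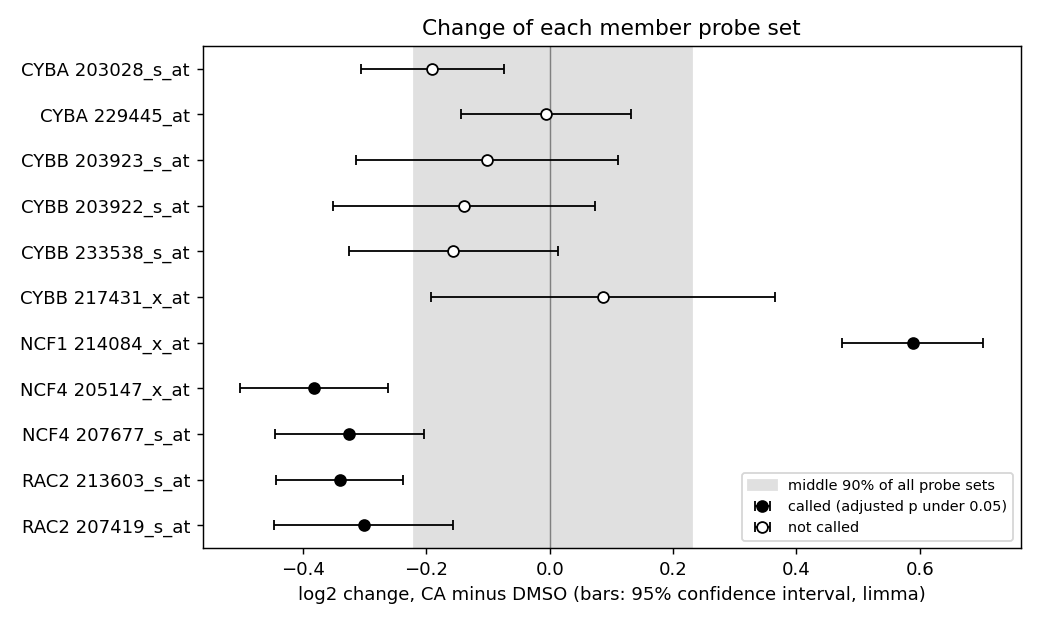
Log2 change of each member probe set, CA minus DMSO (horizontal axis), with its 95% confidence interval from limma. Filled points were called, the grey band holds the middle 90% of all probe sets, and the NCF1 point at 0.59 lies right of the band while the NCF4 and RAC2 points at -0.30 to -0.38 lie left of it.

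The members were also set against each other within each array, where only the shift between groups can be read because the levels of different probe sets are not comparable. NCF1 minus NCF4 was 0.97 higher in CA than in DMSO on the log2 scale, which is the NCF1 change less the NCF4 change given above and adds no separate evidence. CYBB minus CYBA differed by 0.09 between CA and DMSO (exact permutation p = 0.4, 2-sided), and its arrays overlapped. Of the 5 called member probe sets, all ended in _x_at or _s_at, which are designs that may match several genes or transcripts. The 1 member probe set that ends in another way is 229445_at of CYBA, which was not called.

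The genes around the oxidase were read from the brightest probe set of each gene, and 6.86% of all genes were called in this way, 4.31% higher and 2.55% lower. The median log2 change over all genes was -0.003. Of 12 measured relatives and assembly partners, which include other NOX and DUOX enzymes, 0 rose and 0 fell (median -0.06). The signal of 6 of these 12 was dim, at a mean log2 below 6. CYBC1, the chaperone of the gp91phox and p22phox pair, was at -0.13 (95% confidence interval -0.26 to -0.0005, adjusted p = 0.269), although its 3 CA arrays were below its 3 DMSO arrays.

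Of 23 measured activators, which are kinases, exchange factors and binding partners of the oxidase, 2 rose and 3 fell (median -0.08). The genes that rose encode the calcium-binding proteins S100A8 and S100A9, which bind the oxidase and carry arachidonic acid to it. S100A9 read 9.48, 9.44 and 9.53 in CA, against 7.65, 7.60 and 7.68 in DMSO, and S100A8 was at a change of 1.19. Both of the 2 S100A8 probe sets were called, and their average was at 0.90. VAV1, an exchange factor that loads Rac with GTP, read 8.997, 9.058 and 9.143 in CA, against 9.488, 9.509 and 9.357 in DMSO. Its change was -0.39 (SE 0.06, adjusted p = 0.0198), a call lost without DMSO replicate 1 or 2 or CA replicate 1 or 2 (adjusted p of 0.0745 to 0.0774). PIK3CG, the phosphoinositide kinase downstream of chemoattractant receptors, fell by 0.29 (adjusted p = 0.0438), and ELMO1, part of a further Rac exchange factor and chosen after its value was seen, fell by 0.25 (adjusted p = 0.0453). Both lost their calls without any 1 of DMSO replicate 1, 2 or 3 and CA replicate 1, 2 or 3. Both also lost them with arrays centred on their medians (adjusted p = 0.0554 and 0.0631). Of the 3 PIK3CG probe sets, 2 were called.

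Of 17 receptors that trigger or prime the burst, 3 fell and 0 rose (median -0.14). CSF2RB, the shared beta chain of the GM-CSF receptor, read 6.34, 6.31 and 6.28 in CA, against 6.96, 6.99 and 6.88 in DMSO, 1.55-fold lower (log2 change -0.63, SE 0.05, adjusted p = 0.000965). ITGAM and ITGB2 encode the 2 chains of complement receptor 3, which takes up opsonised particles. ITGAM was 1.37-fold lower (-0.45, adjusted p = 0.00779) and ITGB2 1.37-fold lower (-0.46, adjusted p = 0.00310), and in neither did the groups overlap. Only 1 of the 2 ITGAM probe sets was called, and their average was at -0.29 (adjusted p = 0.0219). Of the 3 ITGB2 probe sets, 2 were called, and the average of all 3 was at -0.39 (adjusted p = 0.00193). The 3 receptor genes kept their calls with any 1 array left out. Of the 17 receptors, 8 had a mean log2 below 6, where CYBB lies too.

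Of 19 measured genes that make, dispose of or respond to oxidants, 1 rose and 1 fell (median 0.03). HMOX1, the haem oxygenase induced by oxidative stress, read 6.02, 5.93 and 5.72 in CA, against 5.39, 5.39 and 5.40 in DMSO (0.50, adjusted p = 0.0169). It was dim, at a mean log2 of 5.64. Its call was lost without DMSO replicate 1, 2 or 3 or CA replicate 2 (adjusted p of 0.0646 to 0.0685). The quinone reductase NQO1 was 1.30-fold lower (-0.38, adjusted p = 0.00495). Of 10 measured genes that supply NADPH, 1 fell and 0 rose (median -0.01). That gene was NNT, the mitochondrial transhydrogenase, which was 1.39-fold lower (-0.48, adjusted p = 0.00355). Of the 4 NNT probe sets, 3 were called.

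Of 16 measured transcription factors and cofactors linked to the oxidase genes, 4 rose and 1 fell (median 0.10). IRF1 read 9.83, 9.83 and 9.84 in CA, against 8.33, 8.17 and 8.26 in DMSO, and IRF8 read 13.61, 13.57 and 13.61 in CA, against 13.01, 13.00 and 12.98 in DMSO. Both are interferon regulatory factors, and both are known to act on the CYBB promoter together with PU.1. IRF2, a relative of IRF1, was at 0.45 (adjusted p = 0.0343), and lost its call without DMSO replicate 1, 2 or 3 or CA replicate 1 or 2 (adjusted p of 0.0779 to 0.113). The HOX partner MEIS1, chosen after its value was seen, was at 0.25 (adjusted p = 0.0430), a call lost without any 1 of DMSO replicate 1, 2 or 3 and CA replicate 1, 2 or 3. TGIF1, a homeobox repressor, fell by 0.29 (adjusted p = 0.0236). It lost its call without DMSO replicate 1, 2 or 3 or CA replicate 1 or 2, and averaged over its 3 probe sets it was at -0.13 (adjusted p = 0.204). SPI1, which encodes PU.1 and was chosen after its value was seen, was dim, at 5.59 in CA and 5.51 in DMSO, and was not called (change 0.07, 95% confidence interval -0.09 to 0.24).

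**Figure D3:**
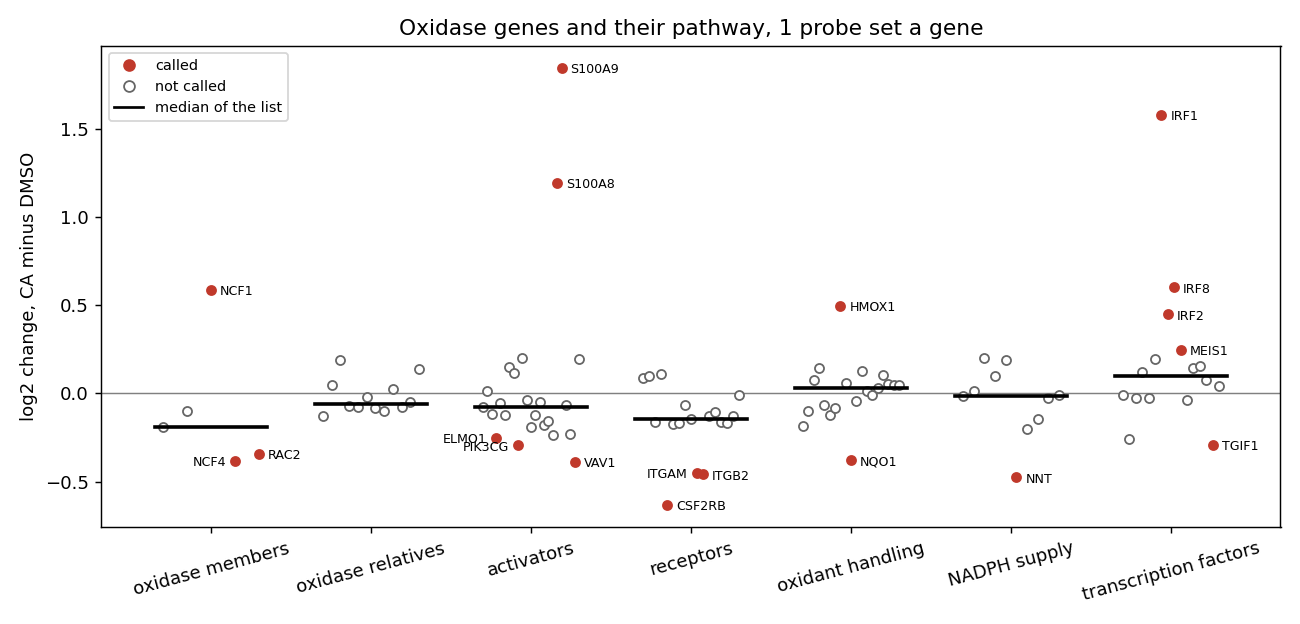
Log2 change, CA minus DMSO (vertical axis), of the oxidase members and of the genes of 6 pathway lists, with 1 probe set per gene and 1 point per gene. Red points were called and are named, and the black line is the median of each list, from -0.19 for the members to 0.10 for the transcription factors.

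NCF4 and RAC2 lie near each other on chromosome 22, with 9 protein-coding genes between them in RefSeq. This stretch was examined after the values were seen. Of the 9, 1 fell and 0 rose, against 2.55% and 4.31% of all genes, and 2 had a mean log2 below 6. The gene that fell was CSF2RB, next to NCF4, which was already counted among the receptors above. The other genes between them were at -0.14 (IL2RB) to 0.11 (C1QTNF6), and none of the 3 genes on each outer side was called, of which CACNG2, PVALB and ELFN2 had a mean log2 below 6 as well. MFNG, beyond RAC2, was the nearest to a call, at -0.20 (adjusted p = 0.0588), and its groups did not overlap.

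**Figure D4:**
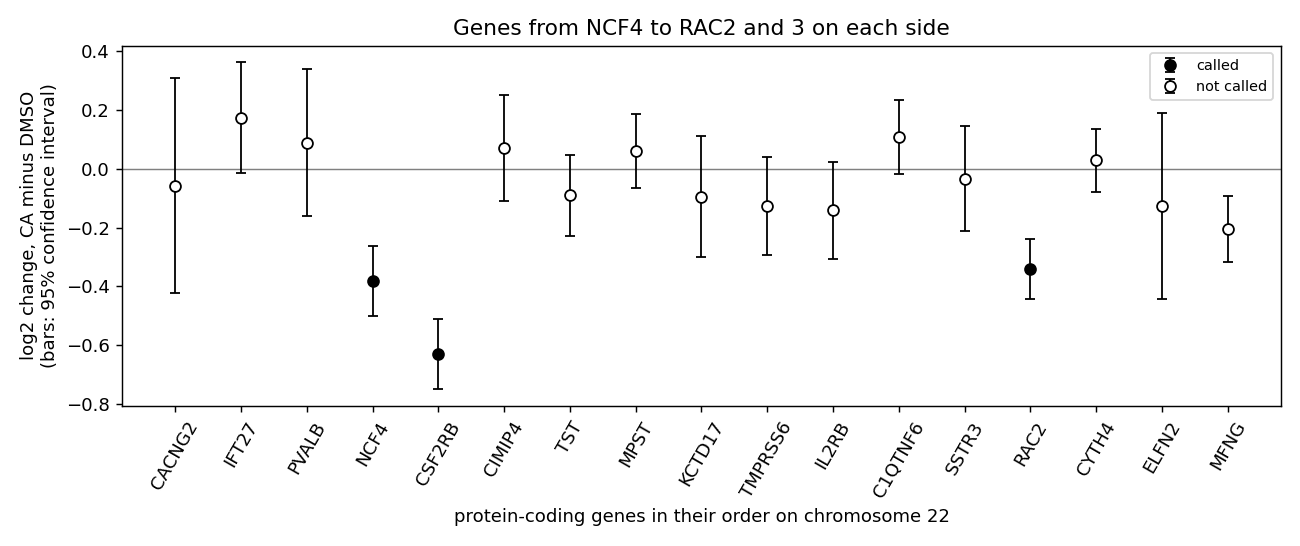
Log2 change, CA minus DMSO (vertical axis), of the protein-coding genes from NCF4 to RAC2 and of 3 genes on each side, in their order on chromosome 22 (horizontal axis, not to scale), with 95% confidence intervals from limma. Filled points were called, and these were NCF4, CSF2RB and RAC2.

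The genes whose 6 array values were most like a called member, after the DMSO mean of each was subtracted, were found by the root mean square distance on the log2 scale. Nearest to NCF1 were MRPS6, a mitochondrial ribosomal protein (0.0184), ALDH2, an aldehyde dehydrogenase (0.0202), and MYADM, a myeloid-associated membrane protein (0.0217). Nearest to NCF4 were CRTAP (0.0154), TAGAP, a GTPase-activating protein of T cells (0.0195), and SYNGR1 (0.0196). Nearest to RAC2 were the mitotic kinesin KIF20A (0.0174), TOMM40L (0.0178) and ERMAP (0.0223). All 9 genes were called, in the direction of the member they were matched to, which the measure of likeness favours.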

How the data were processed

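RNA of 3 CA and 3 DMSO samples of MOLM-14 was measured on 1 array each. Per the submitters' processing notes, the authors made the deposited log2 intensities with RMA and affy. The method corrects background, quantile-normalizes and summarises probes, and it compresses large changes. Its version, and the set of arrays it was run on, were not stated in the sources used here. The labels name RNA kits of 2 makers without saying which sample had which, so the kit could not be examined. Arrays have no depth, and their number limits the precision.

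Of 54675 probe sets, 62 controls were left out. The platform annotation gave 41091 of the rest 1 gene symbol and 1801 several, and 11721 were unnamed here. Symbols were updated by Entrez number (41037 matched). The CA minus DMSO change was tested on all 54613 probe sets with limma 3.58.1 under R 4.3.3 (lmFit, eBayes, 2-sided, no covariates), with Benjamini-Hochberg adjustment over them and calls at adjusted p under 0.05. Intervals are at 95%, unadjusted. The fit was tested on simulated data. Pathway and marker genes were read from the probe set of highest mean log2. The text names every member probe set, RAC1 and CYBC1, and up to 4 called genes of each list with the largest change. LYZ, SPI1, the genes near NCF4 and RAC2, and those marked as such in the text were chosen after their values were seen. The rule also names the 3 genes most like each called member, among genes whose higher group had a mean log2 of 6 or more. Members, lists and rules were chosen with earlier results of these data known. Alternatives covered scaling, moderation, array weights, a replicate block, filters, probe set kinds, fits per gene, thresholds and leaving out each array.

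Same-numbered CA and DMSO samples did not deviate together from their group means (correlations of -0.005, 0.032 and -0.025 across probe sets), so the numbers were not taken as pairs.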

Additional observations from a re-analysis of the deposited data

How the results depend on the processing

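Over 191 values of member probe sets under the alternatives, 0 reversed a call, 163 kept their side of the threshold, 23 lost a call and 5 gained one, the last all for CYBA 203028_s_at. Wherever it was tested, NCF1 was called, except with Holm adjustment (adjusted p = 0.306). The 5 member calls became 3 at adjusted p under 0.01 and with probe sets averaged per gene (of 5 genes), 3 or 4 with 1 array left out, and 0 with the Holm adjustment or with the _x_at and _s_at kinds left out, where a single member probe set is left. With a replicate block, 1 member (NCF1) was called, 1109 of all probe sets and 10 list genes, and 205147_x_at of NCF4 and 213603_s_at of RAC2 were each at adjusted p = 0.0521. The numbers were not taken as pairs. The block also uses up residual degrees of freedom, and the part of this in the lost calls was not tested. Over all probe sets 2736 were called, against 1239 to 1327 with 1 array left out, 968 at adjusted p under 0.01, 4399 under 0.1 and 140 with Holm adjustment. There were 6073 with an intensity trend and robust moderation. With a minimum mean log2 of 5 or 6 there were 4503 of 32602 and 5440 of 24082. There were 1438 of 39114 with the _x_at and _s_at kinds left out, and 1753 of 19775 genes with probe sets averaged per gene. Centred on reference genes, 2618 rose and 652 fell, against 1639 and 1097 as reported. The 16 list genes called became 38 with trend and robust moderation, 27 and 31 with the level minimums, and 26 with 1 probe set per gene. They became 9 without the _x_at and _s_at kinds and at adjusted p under 0.01, 3 with Holm adjustment, and 9 to 13 with 1 array left out. Over its alternatives NCF1 minus NCF4 was 0.942 to 1.0045 higher in CA, and CYBB minus CYBA 0.021 to 0.141. The causes of the differences between these settings were not tested. The limits are 3 arrays a group, the low signal of CYBB and, for NCF1, its copies.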
